A study of Mus musculus with 6 samples.

Results

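Bone marrow-derived mouse osteoclasts were examined for the transcripts of 10 genes of lipid transport: *Apoe*, *Apoc2*, *Abca1*, *Abcg1*, *Lpl*, *Cd36*, *Angptl4*, *Nr1h3*, *Pparg* and *Ch25h*. The genes were chosen by symbol from the deposited count table, with their scaled read counts (CPM, counts scaled to a common library size) in mutant and wild-type libraries in view. Of the 10 genes, 9 had a row among the 23204 genes of the table and *Apoc2* was not analysed here. All 9 passed the filter on low counts, which left 14040 genes. Because the choice used the genotype contrast, the genotype differences of these 9 genes are given as a description, with no p-value for any of them, and counts of calls among them stand only beside the share of all genes called.

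RNA was sequenced from 3 libraries labelled Tet2Rank–/–; Tet3aRank+/–, called mutant here, and 3 wild-type libraries. The mutant label was read as deletion of both alleles of *Tet2* and 1 allele of *Tet3*, enzymes that oxidise methylated cytosine; the meaning of Rank and of the a in Tet3a, the cells that the deletion reaches and the exons it removes are not spelled out there. All mice were C57BL/6, each genotype had 1 female and 2 males by the labels, and ages are not stated in the sources used. Adherent marrow cells grown for 2 days in M-CSF were turned into osteoclasts with RANKL and M-CSF. Columns of the table begin with a number, used here to name the libraries: 2, 3 and 5 were mutant and 1, 4 and 6 wild type. Column names of libraries 5 and 6 carry a second number, and this division is called the naming group.

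These genes form a loop of sterol and fatty acid handling. Oxysterols, such as the product of cholesterol 25-hydroxylase (*Ch25h*), activate the liver X receptors, among them LXR alpha (*Nr1h3*), which pair with retinoid X receptors and switch on the exporters *Abca1* and *Abcg1* and the lipid acceptor *Apoe*. Lipoprotein lipase (*Lpl*), which needs apolipoprotein C-II and is inhibited by ANGPTL4, frees fatty acids from lipoproteins. CD36 takes up fatty acids and modified lipoproteins, and their derivatives can activate PPAR gamma (*Pparg*), a receptor with *Cd36* and *Angptl4* among its known targets. Macrophages use this circuit to shed cholesterol, and osteoclasts arise from the same precursors.

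Total counts ran between 9519978 and 14267135 in mutant libraries and between 8794973 and 12845879 in wild-type libraries. *Tet2* stood at 52.0 ± 6.32 CPM in mutant libraries and 77.3 ± 4.89 CPM in wild-type libraries (SD, n = 3 each), with an edgeR log2 fold change of -0.57 (SE 0.120) and an adjusted p of 0.0924 (0.0400 with the naming group as a term). *Tet3* stood at 153 ± 11.4 CPM in mutant libraries and 131 ± 12.4 CPM in wild-type libraries (SD, n = 3 each), so the label of a lost *Tet3* allele was not matched by a lower count (two-sided exact permutation p = 0.1 for *Tet2*, the smallest that 3 against 3 can give, and 0.2 for *Tet3*). Each value sums reads over the whole gene, including any exons that a deletion leaves in place, and the genotype is used as labelled. Over all genes, 68.1% of the variance of log2 CPM lay on a leading component with libraries 5 and 6 at one end, and 15.3% on a second component that separated the genotypes.

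Promoter sequences are shown for 3 of the genes, since TET enzymes act on methylated CpG and these 3 promoters differ in how many CpG they hold. They are RefSeq sequences of build GRCm38.p6, the assembly that mm10 names, from 250 bases before to 50 bases after the annotated start, 5′ to 3′ on the gene's strand, with each CpG in capitals. The *Apoe* window is chr7:19699139-19699438, the *Abca1* window chr4:53159846-53160145 and the *Cd36* window chr5:17835847-17836146, all on the minus strand. The *Apoe* and *Abca1* starts are the 5′ ends of the genes in the count table, and the *Cd36* start lies inside its listed gene body.
Apoe: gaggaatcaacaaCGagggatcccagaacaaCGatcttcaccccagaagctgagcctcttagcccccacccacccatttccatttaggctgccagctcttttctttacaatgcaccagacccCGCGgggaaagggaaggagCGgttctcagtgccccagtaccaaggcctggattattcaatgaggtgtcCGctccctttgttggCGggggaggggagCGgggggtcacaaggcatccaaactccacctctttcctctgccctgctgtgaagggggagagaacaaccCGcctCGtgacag
Abca1: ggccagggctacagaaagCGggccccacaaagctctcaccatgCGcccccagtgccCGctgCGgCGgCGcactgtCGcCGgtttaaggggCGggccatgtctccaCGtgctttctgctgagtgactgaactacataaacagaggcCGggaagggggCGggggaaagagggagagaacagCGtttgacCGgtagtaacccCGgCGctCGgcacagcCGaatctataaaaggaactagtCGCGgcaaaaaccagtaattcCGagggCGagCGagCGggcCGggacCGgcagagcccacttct
Cd36: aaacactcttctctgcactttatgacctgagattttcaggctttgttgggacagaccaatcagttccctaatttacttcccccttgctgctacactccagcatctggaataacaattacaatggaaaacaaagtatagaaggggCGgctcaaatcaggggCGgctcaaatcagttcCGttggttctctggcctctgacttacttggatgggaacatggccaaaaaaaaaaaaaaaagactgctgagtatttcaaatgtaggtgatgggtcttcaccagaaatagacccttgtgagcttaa

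The *Abca1* window held 26 CpG (observed over expected ratio 0.888), the *Apoe* window 10 (ratio 0.403; 12 and 11 at 2 further starts inside the gene) and the *Cd36* window 3 (ratio 0.216). Over 13769 promoters of tested genes the median was 20 CpG, with quartiles of 10 and 28, so *Abca1* was inside that range, *Apoe* at its lower edge and *Cd36* below it. Among the other members with a sequence, *Ch25h* held 10, *Nr1h3* 8 and 10 in overlapping windows of its 2 starts, and *Pparg* 44, 13 and 2 at its 3 starts. No methylation values were analysed here.

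The windows of the 7 members with a RefSeq promoter, 12 in all, were searched on both strands for direct repeats of the hexamer AGGTCA, the unit recognised by LXR and PPAR paired with RXR, at a spacing of 4 bases (DR4, known for LXR) or 1 base (DR1, known for PPAR). With at most 2 mismatches over both hexamers, 0 of 12 windows held a DR4 and 2 held a DR1, against 2.19% and 2.74% of the promoters of tested genes. One of these lies in the *Cd36* window, 63 to 51 bases before the start on the opposite strand, with 2 mismatches. The other lies in the *Apoc2* window, 122 to 110 bases before the start, with 1 mismatch. *Apoc2* is not among the tested genes, and over all promoters the shares were 3.02% and 3.86%. Windows of different starts overlap within *Apoe* and within *Nr1h3*, so the 12 are not separate sequences. With up to 3 mismatches, a limit set after the first search was seen, 2 of 12 windows held a DR4 and 3 held a DR1, against 17.8% and 20.4% of promoters of tested genes. The DR4 matches were in the *Abca1* window, 67 to 52 bases before the start on the opposite strand, and in the window of the second *Pparg* start, and the window of the first *Apoe* start was the further one with a DR1. The sites are shown with the hexamers in capitals and the spacer in lower case. They are matches of letters and were not tested as binding sites.
Abca1 DR4: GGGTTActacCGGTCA
Cd36 DR1: AAGTCAgAGGCCA
Apoc2 DR1: AGGCCAgAGGTCA

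*Apoe*, *Abca1*, *Cd36*, *Angptl4*, *Nr1h3*, *Pparg* and *Ch25h* were higher in every mutant library than in every wild-type library, while *Abcg1* and *Lpl* overlapped between the genotypes. The size of the difference ranged widely: the mean CPM in mutant libraries was 5.02 times that of wild type for *Angptl4*, 4.52 times for *Apoe*, 3.52 times for *Ch25h*, 2.46 times for *Cd36*, 1.97 times for *Pparg*, 1.64 times for *Abca1* and 1.55 times for *Nr1h3*. Over all genes tested, 9.91% had every mutant library above every wild-type library and 16.9% every one below, beside 7 and 0 of these 9 genes. A log2 fold change above 0 was seen in 7 of the 9 (46.8% of all genes), one above 1 in 4 (3.33%) and one below -1 in 0 (4.14%), with a median of 0.98 beside -0.03 over all genes. In edgeR's quasi-likelihood test without a naming term, 0 of the 9 genes passed an adjusted p of 0.05, where 0.0499% of all genes were called higher and 0.0214% lower, and 7 of the 9 had an unadjusted p under that value, where 19.6% of all genes did. With the naming group as a term, 6 of the 9 were called, where 3.08% of all genes were called higher. The genes were chosen on this contrast, so these counts describe them and support nothing.

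**Figure D1:**
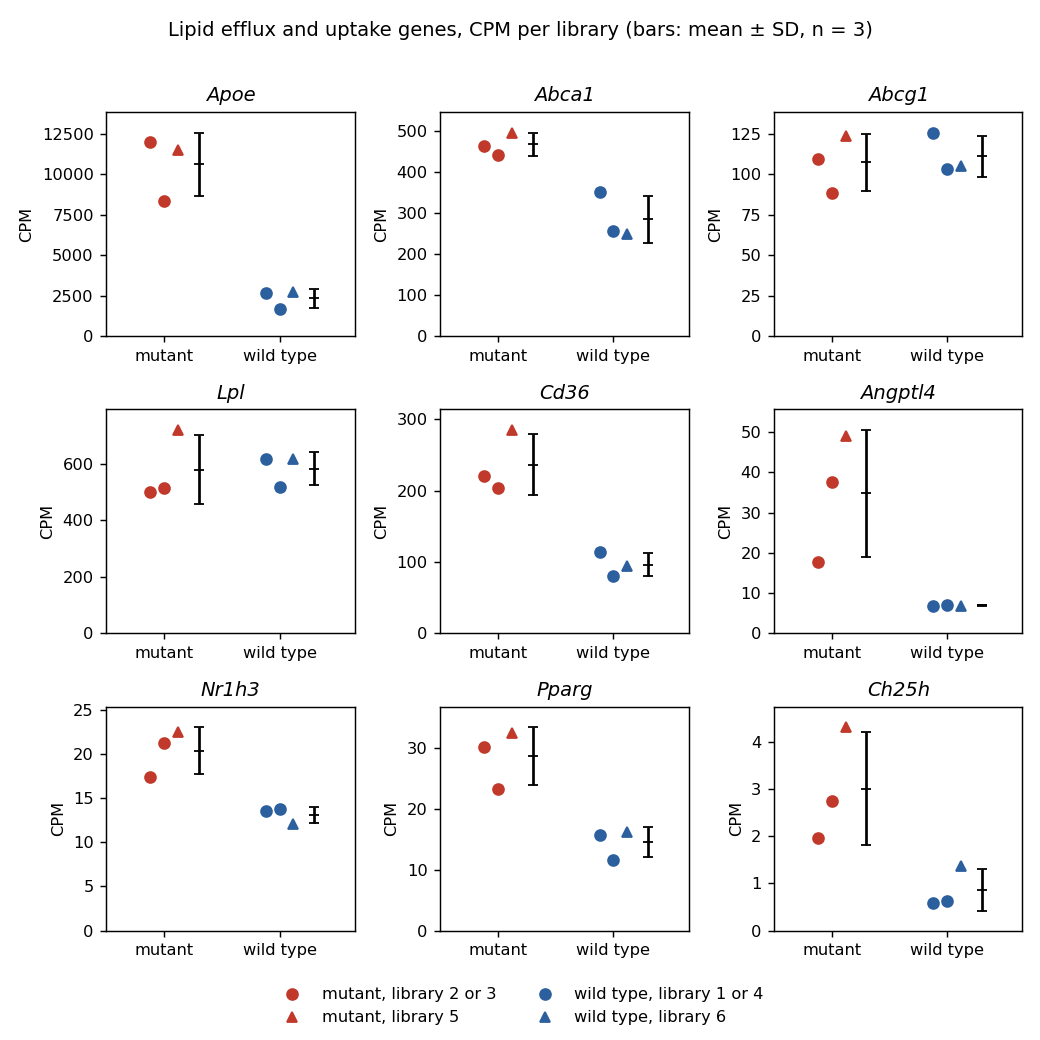
CPM of each gene in each library, mutant left and wild type right, with circles for libraries 1 to 4, triangles for libraries 5 and 6 and bars for the mean ± SD (n = 3 each). In 7 panels the mutant points lie above all wild-type points, and in the panels of *Abcg1* and *Lpl* they overlap.

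The lipid acceptor gene *Apoe* (ENSMUSG00000002985, chromosome 7, 19696109 to 19699188, mm10, minus strand) had 171084, 81906 and 154442 counts in mutant libraries 2, 3 and 5, against 22621, 21599 and 33974 in wild-type libraries 1, 4 and 6. Scaled to depth, these were 11979, 8345 and 11496 CPM in the mutant libraries, against 2639, 1672 and 2724 CPM in the wild-type libraries. The lowest mutant library, 3, was above the highest wild-type library, 6, and the spread inside each genotype was small beside the gap. The log2 fold change was 2.18 (SE 0.261). *Apoe* alone took 1.20%, 0.860% and 1.12% of all counts in mutant libraries 2, 3 and 5, against 0.257%, 0.175% and 0.264% in wild-type libraries 1, 4 and 6. By CPM per kilobase of exon it was the 6th, 8th and 4th most abundant gene of the table in those mutant libraries, against 24th, 33rd and 15th in those wild-type libraries.

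*Abca1* (chromosome 4, 53030787 to 53159895), which encodes the pump that loads cholesterol and phospholipid onto lipid-poor apolipoproteins, stood at 463, 442 and 496 CPM in mutant libraries 2, 3 and 5, against 350.4, 256 and 248 CPM in wild-type libraries 1, 4 and 6. The mutant libraries lay close together, at 467 ± 27.0 CPM, and the wild-type libraries averaged 285 ± 57.1 CPM with library 1 above the other two (SD, n = 3 each). The log2 fold change was 0.71 (SE 0.166). *Abcg1* (chromosome 17, 31057675 to 31117988), the exporter that passes cholesterol to high-density lipoprotein, did not share this pattern. It stood at 109.8, 88.7 and 124 CPM in the mutant libraries, against 126, 103 and 105 CPM in the wild-type libraries, with the lowest value in library 3 and the highest in library 1. Its log2 fold change was -0.05 (SE 0.156), and its sign changed in 2 of the alternative fits.

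*Cd36* (chromosome 5, 17781690 to 17888801), the fatty acid and scavenger receptor, stood at 220.1, 203 and 285 CPM in mutant libraries 2, 3 and 5, against 114, 80.8 and 93.8 CPM in wild-type libraries 1, 4 and 6. Library 5 was the highest and all mutant values were well above library 1, the highest of wild type, with a log2 fold change of 1.30 (SE 0.188). *Lpl* (chromosome 8, 68880491 to 68907448), the secreted triglyceride lipase, stood at 501, 514 and 719 CPM in the mutant libraries, against 615, 516 and 616 CPM in the wild-type libraries. Library 5 was the highest, and libraries 2 and 3 were below all wild-type libraries. *Lpl* had a log2 fold change of -0.01 (SE 0.184), and its sign changed in 7 of the alternative fits.

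*Angptl4* (chromosome 17, 33773750 to 33781830), which encodes an inhibitor of lipoprotein lipase, had 253, 368 and 658 counts in mutant libraries 2, 3 and 5, against 59, 92 and 84 in wild-type libraries 1, 4 and 6. That gave 17.7, 37.5 and 49.0 CPM in the mutant libraries, against 6.88, 7.12 and 6.73 CPM in the wild-type libraries. The wild-type libraries were nearly equal, with a coefficient of variation of 2.84%, while the mutant libraries differed among themselves with one of 45.5%. From 3 libraries with counts of 59, 92 and 84, the wild-type coefficient is a rough estimate and may understate the spread. The log2 fold change was 2.33 (SE 0.371), the largest of the 9 genes, and ranged from 1.99 to 2.68 as each library was left out.

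The lipid-sensing nuclear receptor genes were also higher in the mutant libraries. *Pparg* (chromosome 6, 115360951 to 115490399) stood at 30.2, 23.2 and 32.4 CPM in mutant libraries 2, 3 and 5, against 15.7, 11.6 and 16.1 CPM in wild-type libraries 1, 4 and 6, a log2 fold change of 0.98 (SE 0.197). *Nr1h3* (chromosome 2, 91184061 to 91202834) stood at 17.4, 21.3 and 22.6 CPM in the mutant libraries, against 13.5, 13.8 and 12.1 CPM in the wild-type libraries, a log2 fold change of 0.64 (SE 0.159). Neither overlapped between the genotypes, and the order of the mutant libraries differed between them, with library 3 the lowest for *Pparg* and library 2 the lowest for *Nr1h3*.

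*Ch25h* (chromosome 19, 34473778 to 34475164), the enzyme gene for 25-hydroxycholesterol, was close to the limit of what the depth could measure. It had 28, 27 and 58 counts in mutant libraries 2, 3 and 5, against 5, 8 and 17 in wild-type libraries 1, 4 and 6, or 1.96, 2.75 and 4.32 CPM against 0.583, 0.619 and 1.36 CPM. Within each genotype the library of the 5 and 6 pair was the highest. The log2 fold change was 1.79 (SE 0.565), the least precise of the 9 genes. *Ch25h* shares 159 bases of exon with *Gm26902* on the opposite strand, which had 20, 7 and 2 counts in the mutant libraries and 2, 18 and 3 in the wild-type libraries, and the strand setting of the counting is not stated in the sources used.

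Levels of different genes were compared as CPM per kilobase of annotated exon. In mutant libraries the order of mean levels was *Apoe* (4961), *Cd36* (65.8), *Lpl* (55.2), *Abca1* (45.0), *Abcg1* (14.7), *Angptl4* (9.81), *Pparg* (9.68), *Nr1h3* (8.12) and *Ch25h* (2.17). In wild-type libraries it was *Apoe* (1097), *Lpl* (55.6), *Abca1* (27.5), *Cd36* (26.8), *Abcg1* (15.3), *Nr1h3* (5.22), *Pparg* (4.91), *Angptl4* (1.95) and *Ch25h* (0.617). By range over the mutant libraries *Cd36* overlapped *Lpl*, *Lpl* overlapped *Abca1*, *Abcg1* overlapped *Angptl4*, *Angptl4* overlapped *Pparg*, and *Pparg* overlapped *Nr1h3*. Within each mutant library, however, *Cd36* stood above *Lpl*, *Lpl* above *Abca1* and *Abcg1* above *Angptl4*. In wild-type libraries only *Abca1* with *Cd36* and *Nr1h3* with *Pparg* overlapped as neighbours. *Cd36* stood above *Abca1* in 3 of 3 mutant libraries and 1 of 3 wild-type libraries, and *Angptl4* stood above both *Pparg* and *Nr1h3* in mutant libraries 3 and 5 and below both in mutant library 2 and in 3 of 3 wild-type libraries.

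The 7 genes without overlap were higher in the mutant within both naming groups. Between libraries 5 and 6 the difference in log2 CPM was 2.83 for *Angptl4*, 2.08 for *Apoe*, 1.60 for *Cd36*, 1.55 for *Ch25h*, 1.0 for *Abca1* and for *Pparg*, and 0.89 for *Nr1h3*. Within libraries 1 to 4 the mean difference was 2.25 for *Apoe*, 1.86 for *Angptl4*, 1.70 for *Ch25h*, 1.14 for *Cd36*, 0.96 for *Pparg*, 0.59 for *Abca1* and 0.49 for *Nr1h3*. *Lpl* and *Abcg1* changed sign between the naming groups, with -0.15 and -0.21 within libraries 1 to 4 and 0.22 and 0.24 between libraries 5 and 6.

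**Figure D2:**
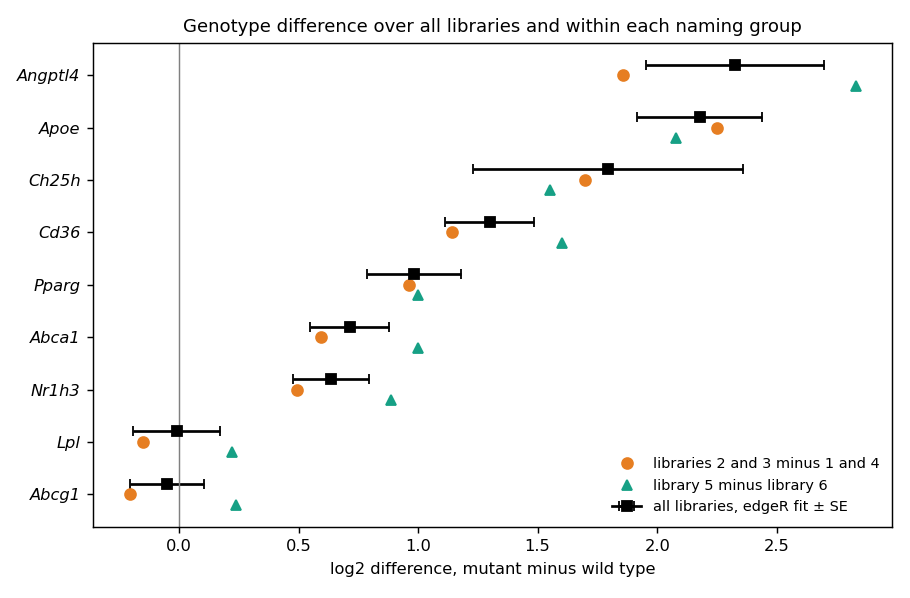
Log2 difference of mutant minus wild type for each gene: squares are the estimate over all 6 libraries ± SE, circles the mean difference within libraries 1 to 4, triangles the difference between libraries 5 and 6. The 7 upper genes lie right of 0 by all 3 measures, and *Lpl* and *Abcg1* lie on both sides of 0.

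The naming contrast, which the choice of genes did not use, was tested in the same edgeR fit with genotype as a term. *Ch25h* averaged 2.84 CPM in libraries 5 and 6 and 1.48 CPM in libraries 1 to 4, a log2 difference of 1.0 (SE 0.420, edgeR adjusted p = 0.207). *Lpl* averaged 668 CPM in libraries 5 and 6 and 536 CPM in libraries 1 to 4, a log2 difference of 0.32 (SE 0.148, edgeR adjusted p = 0.247). The other log2 differences lay between -0.07 for *Abca1* and 0.45 for *Angptl4*. Of the 9 genes 0 passed in the edgeR quasi-likelihood test, where 2.29% of all genes did, 0.463% higher and 1.83% lower in libraries 5 and 6. In DESeq2 and in limma-voom 0 of the 9 passed as well.

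Summed levels of osteoclast and of macrophage marker genes moved with the genotype too. The summed level of 12 osteoclast markers, all detected, ran from 3025 to 12577 CPM in mutant libraries and from 15354 to 40177 CPM in wild-type libraries. The summed level of 12 macrophage markers ran from 9215 to 9830 CPM in mutant libraries and from 5912 to 7467 CPM in wild-type libraries. Neither sum overlapped between the genotypes. Singly, 8 of the 12 osteoclast markers were lower in every mutant library than in every wild-type library, beside 16.9% of all genes. Of the 12 macrophage markers 7 were higher in every mutant library, beside 9.91% of all genes. *Csf1r* and *Cd68* were among the macrophage markers that overlapped. In the fit with the naming term 9 osteoclast markers fell and 6 macrophage markers rose, beside 5.6% and 3.08% of all genes. Without that term 0 markers of either list were called, where 0.0712% of all genes were. In bulk libraries, fewer cells of a type and less RNA per cell cannot be told apart. The part of this shift in the levels of the lipid genes was not tested.

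Other cell types with lipid genes of their own were also looked for. Of 7 adipocyte markers with a row, *Fabp4*, which macrophages also express, and *Plin4* held most counts, while *Adipoq* had 1, 0 and 3 counts in mutant libraries 2, 3 and 5 and 1, 3 and 1 in wild-type libraries 1, 4 and 6, and *Plin1* had 1 count in all. Stromal markers were abundant: their sum was 690, 2073 and 3248 CPM in the mutant libraries, against 838, 818 and 2310.0 CPM in the wild-type libraries, mostly *Col1a1* and *Col1a2*. Library 2 had the lowest stromal sum, but *Dcn* of the same list was highest there, at 42.0 CPM against 2.16 to 28.8 CPM in the other libraries. Neutrophil markers summed to 415, 505 and 1291 CPM in the mutant libraries, against 266, 233 and 834 CPM in the wild-type libraries, highest in libraries 5 and 6 as for *Ch25h* within each genotype. In the fit with the naming term 4 of the 6 rose with genotype, beside 3.08% of all genes. Without that term 0 of the 6 were called, where 0.0712% of all genes were. Every mutant library was above every wild-type library for 0 of the 6, beside 9.91% of all genes. Endothelial markers summed to between 16.6 and 79.0 CPM in mutant libraries and between 10.7 and 66.4 CPM in wild-type libraries. Erythroid markers ran from 0.372 to 64.3 CPM and from 0 to 58.0 CPM, lymphocyte markers from 131 to 173 CPM and from 37.0 to 158 CPM, and dendritic cell markers from 170 to 356 CPM and from 129 to 424 CPM, mutant and wild type in each pair. The part of stromal, neutrophil or other cells in the levels of the lipid genes was not tested.

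**Figure D3:**
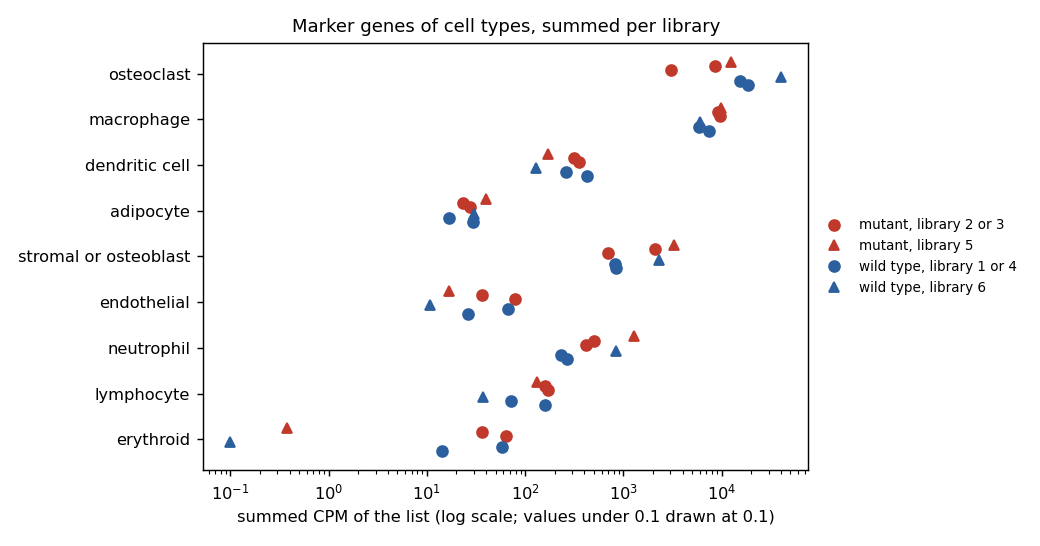
Summed CPM of marker genes per cell type and library on a log scale, mutant above wild type within each row, with circles for libraries 1 to 4 and triangles for libraries 5 and 6. Osteoclast sums are lower and macrophage sums higher in all mutant libraries, and stromal and neutrophil sums are highest in libraries 5 and 6 within each genotype.

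*Apoe* lies in a cluster with other apolipoprotein genes, so the genes of the table within 100 kb were read as a comparison. Of 10 such genes 7 were tested, and 0 were called in edgeR without or with the naming term, where 0.0712% and 8.68% of all genes were. Without the term 1 of the 7 had an unadjusted edgeR p under 0.05, where 19.6% of all genes did. Their log2 fold changes ran from -0.69 to 0.19, with a median of -0.19 beside -0.03 over all genes. *Apoc1*, whose gene lies 3449 bases from *Apoe*, had between 4 and 17 counts per library and stood at 0.834 ± 0.248 CPM in mutant libraries and 1.05 ± 0.849 CPM in wild-type libraries (SD, n = 3 each). *Tomm40*, the mitochondrial import pore gene 2125 bases upstream, stood at 60.2 ± 23.1 CPM in mutant libraries and 97.1 ± 35.0 CPM in wild-type libraries (log2 fold change -0.69, SE 0.368, edgeR adjusted p = 0.378). *Apoc4* had 2 to 8 counts per library and was not tested.

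**Figure D4:**
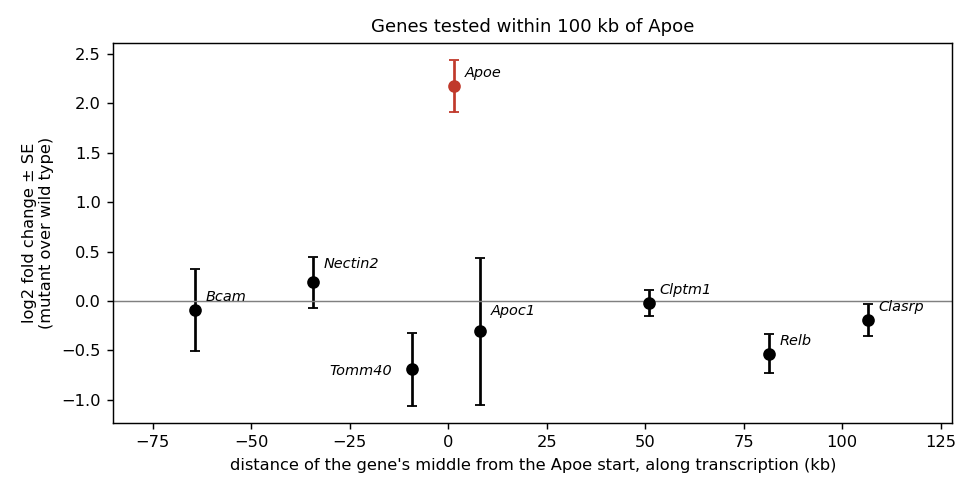
Log2 fold change ± SE (mutant over wild type) of the tested genes within 100 kb of *Apoe* against the distance of each gene's middle from the *Apoe* start, positive along the direction of *Apoe* transcription. *Apoe* stands at 2.18 and the other genes between -0.69 and 0.19.

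The wider pathways were read from 7 lists with 121 distinct genes besides the members, of which 105 were tested. These lists were fixed with earlier results of these data known, so the shares of them called are a description only. In the edgeR fit without the naming term 0 of the 105 passed, where 0.0712% of all genes did; 40 had an unadjusted p under 0.05 (38.1%, against 19.6% of all genes), 0 passed in limma-voom and 29 in DESeq2. With the naming term 9 rose and 11 fell, 19% of the 105 against 8.68% of all genes. That count of 20 was 16 without library 1, 7 without library 2, 27 without library 3, 4 without library 4, and 0 without library 5 or library 6, which leaves a single library in that naming group. The median log2 fold change of the 105 was 0.04, beside -0.03 over all genes. For the list genes, rose and fell refer to the fit with the naming term, as do their fold changes and edgeR adjusted p-values, while list medians are from the fit without it.

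Among 20 genes of lipoprotein and fatty acid uptake, 5 rose and 2 fell, where 3.08% and 5.6% of all genes did. *Dab2*, which encodes a clathrin adaptor of endocytosis, stood at 398 ± 37.5 CPM in mutant libraries and 119 ± 53.7 CPM in wild-type libraries (SD, n = 3 each, edgeR adjusted p = 0.0158). The scavenger receptor gene *Stab2* stood at 20.2 ± 1.21 CPM in mutant libraries and 8.82 ± 1.53 CPM in wild-type libraries (edgeR adjusted p = 0.0204). The related *Stab1* and the sorting receptor gene *Sorl1*, named after their values were seen, rose with log2 fold changes of 1.38 and 1.32. *Slc27a1*, a fatty acid transporter gene, fell to 141.0 ± 14.0 CPM in mutant libraries, against 251 ± 14.1 CPM in wild-type libraries (edgeR adjusted p = 0.0168).

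**Figure D5:**
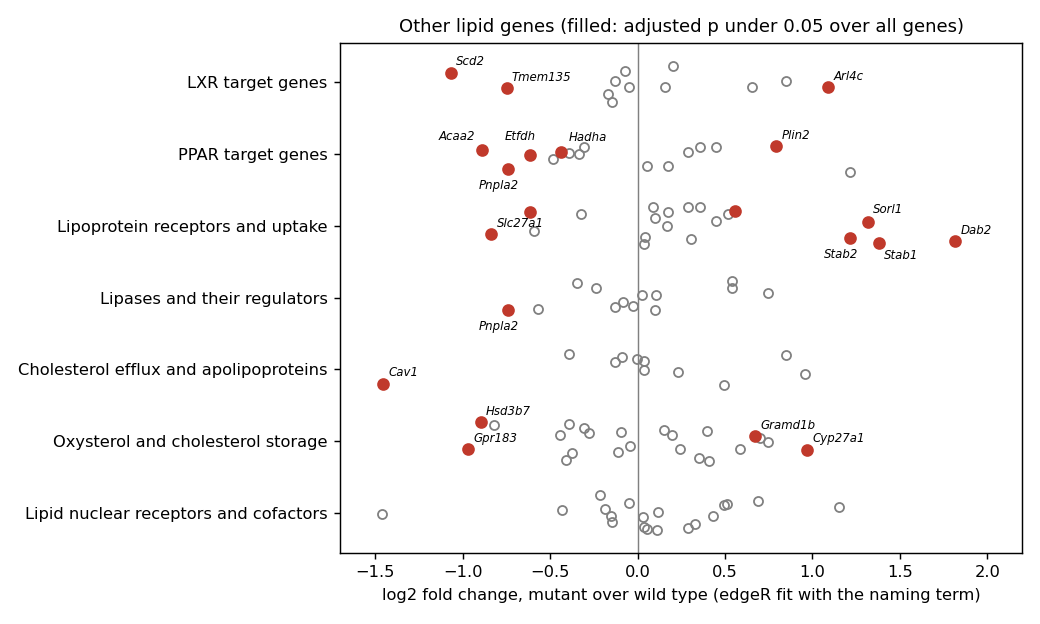
Log2 fold change (mutant over wild type, edgeR fit with the naming term) of the tested genes of each list, members left out, with genes past an adjusted p of 0.05 filled, most of them named. Genes past the threshold lie on both sides of 0 in 4 lists, and none passed among nuclear receptors and cofactors.

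Of 12 tested genes known as LXR targets besides the members, 1 rose and 2 fell, where 3.08% and 5.6% of all genes did. *Arl4c*, a small GTPase gene, stood at 201 ± 24.4 CPM in mutant libraries and 95.3 ± 22.0 CPM in wild-type libraries (SD, n = 3 each, edgeR adjusted p = 0.0226). The desaturase gene *Scd2* fell to 79.0 ± 7.55 CPM in mutant libraries, against 165 ± 13.4 CPM in wild-type libraries (edgeR adjusted p = 0.0135), and *Tmem135* fell with a log2 fold change of -0.75. *Pltp*, the phospholipid transfer protein gene, at 879 CPM in mutant libraries and 502 CPM in wild-type libraries, and *Mylip*, which encodes a ubiquitin ligase, at 63.9 CPM and 40.8 CPM, did not pass (edgeR adjusted p = 0.0754 and 0.0820). The lipogenic LXR target *Srebf1* had a log2 fold change of -0.07. *Pltp*, *Mylip* and *Srebf1* were named after their values were seen. The list's median log2 fold change was -0.06. The members known as LXR targets stood at 2.18 for *Apoe*, 0.71 for *Abca1*, 0.64 for *Nr1h3*, -0.01 for *Lpl* and -0.05 for *Abcg1*.

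Of 15 tested genes known as PPAR targets, 1 rose and 4 fell, where 3.08% and 5.6% of all genes did. The lipid droplet gene *Plin2* stood at 387 ± 53.4 CPM in mutant libraries and 223 ± 12.8 CPM in wild-type libraries (SD, n = 3 each, edgeR adjusted p = 0.0226). The triglyceride lipase gene *Pnpla2* fell to 125 ± 14.1 CPM in mutant libraries, against 209 ± 7.70 CPM in wild-type libraries (edgeR adjusted p = 0.0211). *Acaa2* and *Hadha*, enzymes of mitochondrial fatty acid oxidation, fell with log2 fold changes of -0.89 and -0.44 (*Hadha* named after its value was seen). *Etfdh*, which passes electrons from this pathway to the respiratory chain, fell with one of -0.61. The list's median log2 fold change was -0.30, and the members known as PPAR targets stood at 2.33 for *Angptl4*, 1.30 for *Cd36* and -0.01 for *Lpl*.

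Of 23 tested genes of oxysterol metabolism and cholesterol storage, 2 rose and 2 fell, where 3.08% and 5.6% of all genes did. *Cyp27a1*, the sterol 27-hydroxylase gene, stood at 131 ± 26.3 CPM in mutant libraries and 69.3 ± 24.8 CPM in wild-type libraries (SD, n = 3 each, edgeR adjusted p = 0.0275). *Gpr183*, the receptor for oxysterols made from 25-hydroxycholesterol, fell to 35.1 ± 11.6 CPM in mutant libraries, against 68.6 ± 17.3 CPM in wild-type libraries (edgeR adjusted p = 0.0346). *Gramd1b*, a sterol transfer protein gene, rose and *Hsd3b7*, a bile acid and oxysterol dehydrogenase gene, fell, with log2 fold changes of 0.67 and -0.90, and libraries of the genotypes overlapped for *Gramd1b*. Of 13 lipases and their regulators *Pnpla2* fell, and of 11 apolipoprotein and efflux genes *Cav1*, the caveolin gene, fell, where 5.6% of all genes did. The log2 fold change of *Cav1* was -1.45, with libraries of the genotypes overlapping. Of 19 nuclear receptors and cofactors 0 passed in edgeR, where 8.68% of all genes did with the naming term. Without the naming term 5 had an unadjusted edgeR p under 0.05 (26.3%, against 19.6% of all genes). The most abundant, *Ncoa3* and *Ncor1*, had log2 fold changes of 0.12 and 0.04.

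Across the 6 libraries the 7 genes without overlap followed each other, with Pearson's r of log2 CPM between 0.74 and 0.99 over 21 pairs, a description in which the shared genotype difference and the same 6 libraries carry much of the value. *Abcg1* and *Lpl* had r of -0.0024 and 0.070 with *Apoe* and 0.69 with each other. Among 9360 other genes with a mean of at least 10 CPM, the pattern of *Apoe* was most like that of *Tbc1d9* (r = 0.999), *Ccm2* (0.994) and *Kctd21* (0.987), and 92 genes had r above 0.95. *Abcg1* was most like *Tyw1* (0.995) and *Lpl* most like *Herc2* (0.990), with 5 and 15 genes above that value. The nearest patterns were *Hvcn1* and *Vav2* for *Abca1*, *Pla2g15* and *Nosip* for *Cd36*, *Anxa3* and *Nuak1* for *Angptl4*, *Calm3* and *Nuak1* for *Nr1h3*, *Itgb1bp1* and *Gnai2* for *Pparg*, and *Chsy1* and *Ptgs1* for *Ch25h*.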

How the data were processed

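RNA of 6 osteoclast libraries was sequenced as stranded mRNA libraries read from 1 end over 75 bases, per the labels' protocols. TopHat2 2.0.13, Bowtie2 2.2.3, SAMtools 0.1.19 and build mm10 are named in the submitters' processing notes; how reads were counted, on which strand and against which gene models is not stated in the sources used. The deposited values are raw read counts for each Ensembl gene, whole numbers that were not normalized. Of 23264 rows, 60 repeated a gene and were dropped. No pair of libraries agreed within sampling noise (smallest chi-square over its degrees of freedom 25.7). Column names give the genotype only, so the replicate numbers and sexes of the labels were not tied to columns; separate animals are not stated, so p-values reflect the variation among these libraries, which may be technical.

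Counts were filtered with filterByExpr, scaled by TMM and tested with edgeR 4.0.16 (R 4.3.3) by the quasi-likelihood test with Benjamini-Hochberg adjustment over all 14040 genes. CPM are TMM-scaled over the counts of tested genes, log2 CPM used a prior count of 2, and SE is |log2 fold change| divided by the root of the F statistic. Biological variation (edgeR's common coefficient) came to 40.9% without and 23.5% with the naming term, which at 3 libraries per genotype limits the precision. Library totals are in the report. Exon lengths are from GENCODE M21 (99.8% of IDs matched). The edgeR fits were tested on simulated data. Alternatives used DESeq2 1.42.0, limma-voom 3.58.1, other scalings and filters, and each library left out.

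Named list genes were up to 4 per list past the threshold without or, failing that, with the naming term, otherwise the 2 most abundant; likeness used the highest r over 6 libraries. List counts include some genes whose own results are not reported here. The members and lists were chosen with earlier results of these data known.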

Additional observations from a re-analysis of the deposited data

Results flagged for a closer look

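Genes whose genotype difference ran in opposite directions in every library of the naming groups were noted. For *Lpl* the mutant-minus-wild-type difference in log2 CPM came to -0.15 among libraries 1 to 4 and to 0.22 for library 5 minus library 6. For *Ncor1*, which encodes a corepressor of nuclear receptors, it came to -0.022 among libraries 1 to 4 and to 0.15 for library 5 minus library 6. In each case both mutant libraries of the first group were below both wild-type libraries and library 5 was above library 6. In that first group the nearest libraries were almost equal. *Lpl* stood at 514 CPM in mutant library 3 and 516 CPM in wild-type library 4. *Ncor1* stood at 175.9 CPM in mutant library 3 and 176.0 CPM in wild-type library 1. The difference between the naming groups was not tested.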

How the results depend on the processing

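The count of genes called between genotypes was 10, and changed with the setting: it was 1219 with the naming term, 1426 in DESeq2, 80 with upper-quartile scaling and 81 with all genes that had a count, and between 0 and 3 as each library was left out. The lipid list genes called were 0, against 20 with the naming term, 29 in DESeq2, 1 with upper-quartile scaling and 1 with all genes that had a count. With the naming term in place they were 20, against 37 in DESeq2 and 37 with all genes that had a count, and between 0 (without library 5 or 6) and 27 (without library 3) as each library was left out. RLE scaling, limma-voom and a filter of 1 CPM in 3 libraries kept each of these counts within 1.5 times, and 0 of the 9 members passed by naming group under any alternative run. The log2 fold changes of the 7 members without overlap kept their sign in each alternative, from 2.01 to 2.32 for *Apoe* and from 1.43 to 2.32 for *Ch25h* as libraries were left out. Differences by naming group changed sign in some of the fits that left out a library, with ranges of -0.28 to 0.18 for *Abca1*, -0.12 to 0.36 for *Abcg1*, -0.043 to 0.47 for *Cd36*, -0.050 to 0.87 for *Angptl4* and -0.17 to 0.26 for *Nr1h3*, the last also at -0.023 with upper-quartile scaling. The log2 fold change of *Ncor1* with the naming term ranged from -0.024 to 0.094. The cause of these changes was not tested. No paired analysis was possible because the columns carry no replicate numbers. Low counts limit *Ch25h*, which had 58 at most. Where no gene was called with a library left out, unadjusted p-values under 0.05 numbered 2527, 2001, 2676 and 2345 (without libraries 1, 3, 4 and 5).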
